A study of Mus musculus with 6 samples.

Results

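The proteasome is the large protease that breaks down most short-lived and damaged proteins of the cell once they carry a ubiquitin chain. Its genes were examined in RNA from the whole heart of the mouse embryo at day 9.5 of development, in 3 MCKO libraries and 3 control libraries. MCKO stands for a knockout of the small GTPase gene Cdc42 in the myocardium, and its genotype label names a knockout of CDC-42. The control libraries carry the genotype C57BL/6. The labels name neither the Cre driver nor the strain of the MCKO embryos. The series' design text counts 3 hearts in each set, but the labels do not say which heart or litter a library came from. The members were chosen by symbol: every protein-coding gene of the table whose symbol starts with Psma, Psmb, Psmc, Psmd or Psme followed by a digit. This gave 45 genes of 30323 gene IDs, of which 21443 are protein-coding. No measured value entered that rule, but the family was put forward with the MCKO and control values of these libraries known. Its counts are therefore a description of these 6 libraries.

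The 26S proteasome consists of a barrel, the 20S core, and a regulatory particle, the 19S, that caps it. The outer rings of the barrel are built of alpha subunits, which gate its entry, and the inner rings of beta subunits, some of which cut peptide bonds. In the 19S particle a ring of ATPases unfolds the substrate and threads it into the core, while other subunits bind ubiquitin chains and cut them off. Immune signals such as interferon can exchange the catalytic beta subunits for inducible ones, and other caps can take the place of the 19S particle. In heart muscle the proteasome takes part in the turnover of contractile proteins.

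Of the 45 genes, 42 had enough counts to be tested. The 3 others, Psmb8, Psmb9 and Psme2b, were at or near 0 in every library. Levels are in CPM, the estimated counts scaled to library sizes with TMM factors. A log2 fold change is MCKO relative to control, with its standard error (SE). A gene was called at a Benjamini-Hochberg adjusted p under 0.05 in edgeR's quasi-likelihood fit over all 14697 tested genes. In MCKO hearts 37 of the 42 genes were lower than in controls, 0 were higher, and 5 were not called. Over all tested genes the same fit called 58.4%, with 29.1% lower and 29.3% higher in MCKO. At an unadjusted p under 0.05, 39 members were lower and 0 were higher, and DESeq2 called 36 lower and 0 higher. The 3 MCKO values lay wholly below the 3 control values in 37 members, while groups did not overlap in 64.7% of all tested genes in either direction.

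The falls were of moderate size. The median log2 fold change of the tested members was -0.35, against a median near 0 (0.0006) over all tested genes. The median size of the change without its sign was 0.36 in members and 0.31 over all tested genes. A change of less than 0.5 in log2 units was seen in 27 of the 37 called members, and in 53.2% of the calls over all genes. Summed over the 45 genes, proteasome RNA came to 4494.7, 4468.5 and 4612.9 CPM in the MCKO libraries, against 5886.1, 5898.8 and 5705.0 CPM in the control libraries. All MCKO sums were below all control sums, and the ratio of the means was 0.776. Put as shares of the counts, the family took 0.439 to 0.450% in MCKO and 0.585 to 0.602% in control libraries.

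**Figure D1:**
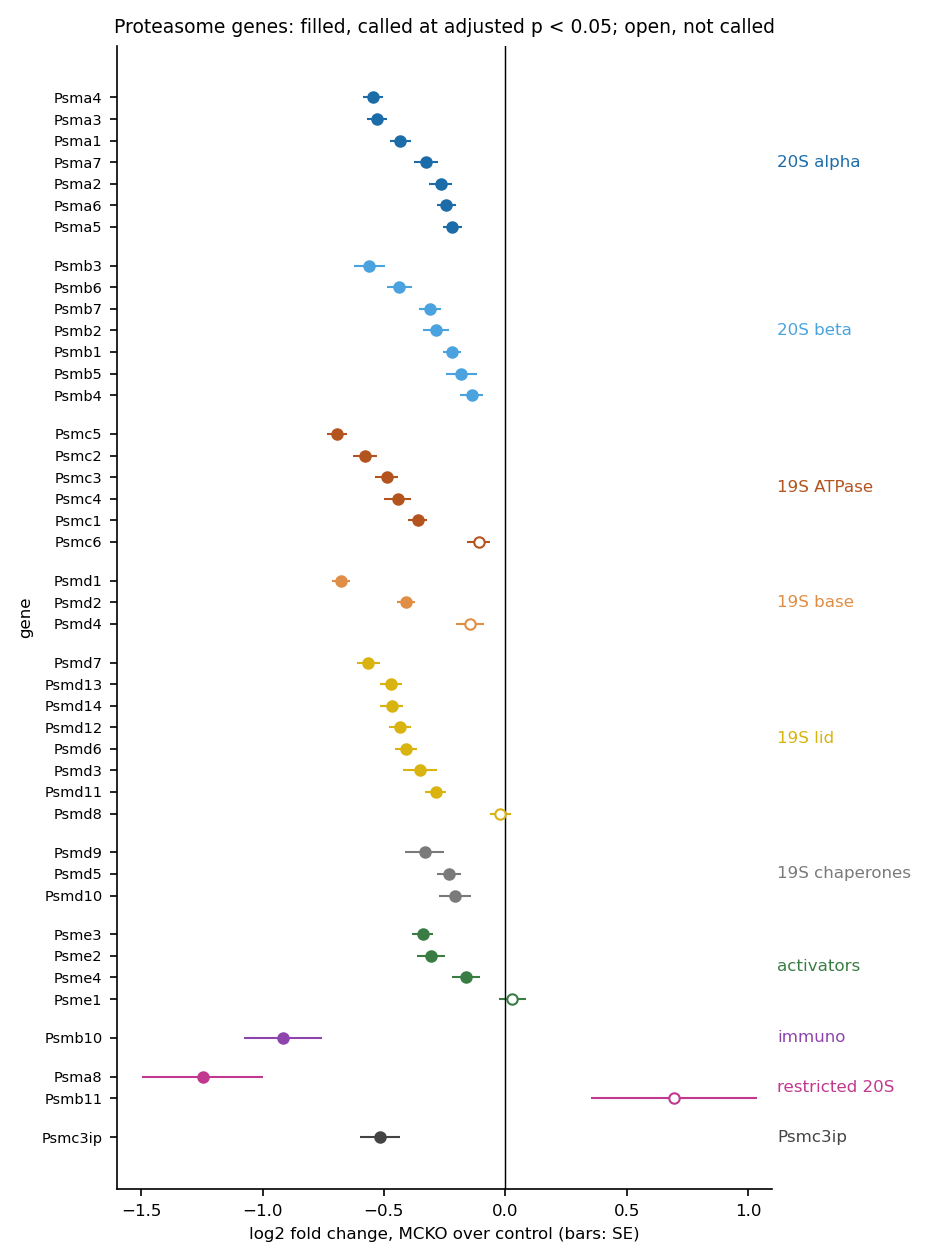
Log2 fold change of each tested proteasome gene, MCKO over control, on the horizontal axis, with bars of 1 SE and genes grouped by structural class down the vertical axis. The 37 filled points, which passed the test, all lie left of 0, and the 5 open points (Psmc6, Psmd4, Psmd8, Psme1 and Psmb11) did not pass it.

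The libraries held 23883877 to 34246477 estimated counts in MCKO and 19256840 to 32169289 in control. Cdc42 itself had 252.6, 245.3 and 244.7 CPM in MCKO hearts, against 390.2, 371.2 and 413.0 CPM in controls (log2 fold change -0.66, SE 0.047, edgeR adjusted p = 2.93e-06). Summed cell type markers also differed between the groups. Summed markers of primitive red cells came to 6626 to 7094 CPM in MCKO and 3028 to 3345 CPM in control, with 9 of 9 measured markers higher. Summed markers of endothelium and endocardium came to 1429 to 1451 CPM in MCKO and 1154 to 1174 CPM in control, with 8 of 10 higher and 2 lower. Heart muscle markers summed to 42460 to 44250 CPM in MCKO and 34220 to 37930 CPM in control, with 4 of 10 higher and 0 lower. The 4 were Myh7, Actc1, Myl7 and Tnnt2, and 6 were not called. Myh7 had a large part in the gap, with a mean of 10350 CPM in MCKO and 6200 CPM in control. The share called was 100% in the red cell and endothelial lists and 40.0% in the heart muscle list, against 58.4% of all tested genes. No marker of these lists was at 0 in all libraries. In such bulk samples fewer cells of a type and less RNA per cell cannot be told apart, and the part of these shifts in the proteasome values was not tested.

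Promoter sequence was read for the members because many proteasome genes of mouse and human carry an antioxidant response element, through which the transcription factor NRF1 (gene Nfe2l1) raises them together when the proteasome is inhibited. RefSeq windows on GRCm38.p6, from 250 bases before to 50 bases after the start, were at hand for 38 of the 45 genes, not for Psma8, Psmb1, Psmb2, Psmb7, Psmc3, Psmd3 or Psmd7. The core of the element, TGACNNNGC on either strand, was found in 6 of them (15.8%), against 14.8% of the 17492 protein-coding genes with a window. The 6 stretches are shown because they hold this core, in capitals, on the strand of the gene, with 20 bases on each side where the window allows.
Psmb5 (chr14:54618014-54618062, minus strand): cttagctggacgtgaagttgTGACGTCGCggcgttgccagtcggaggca
Psmb6 (chr11:70525328-70525376, plus strand): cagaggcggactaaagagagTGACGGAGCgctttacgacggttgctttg
Psmc6 (chr14:45329577-45329625, plus strand): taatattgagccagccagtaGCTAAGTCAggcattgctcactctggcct
Psmd9 (chr5:123228139-123228187, plus strand): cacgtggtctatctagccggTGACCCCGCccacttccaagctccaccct
Psmd12 (chr11:107479278-107479309, plus strand): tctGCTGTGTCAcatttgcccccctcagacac
Psme4 (chr11:30771748-30771796, plus strand): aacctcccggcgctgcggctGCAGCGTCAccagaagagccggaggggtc
The matches lie at -47, -9, -227, -31, -247 and -7 bases from the RefSeq start in the order shown, counted to the first base of the match. In Psmc6, Psmd12 and Psme4 the capitals are the reverse complement of the core. Of these 6 genes, 5 passed the test and were lower in MCKO, and Psmc6 did not pass it. Over all 42 tested members 88.1% were lower. A link between the element and the lower levels was not tested. A further 4 motifs were searched on both strands. A gene with more than 1 window was counted once if any of them held the motif. The CCAAT box (CCAAT) was in 39.5% of the members with a window and 42.3% of all genes with a window. The GC box (GGGCGG) was in 57.9% of members and 49.2% of all, and in Psmd9 it overlaps the core shown above. The core of the hypoxia response element (ACGTG) was in 21.1% of members and 23.2% of all. The element bound by ATF4 and CHOP (TGATGNAA) was in 1 member, Psmd13 (2.63%), and in 4.13% of all. A match is a run of letters in this window, and binding was not measured.

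All 14 constitutive subunits of the 20S core were lower in MCKO hearts. Their log2 fold changes ran between -0.56 and -0.14 with a median of -0.30. Their summed level was 1654.4 ± 47.1 CPM in MCKO and 2084.4 ± 47.6 CPM in control (SD, n = 3 each), a ratio of 0.794. In 13 of the 14 the groups did not overlap.

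In the alpha ring all 7 genes were lower, with a median of -0.33. Psma4 (ENSMUSG00000032301, chromosome 9, 54950790 to 54958030, plus strand, GRCm38) had the lowest ratio of the ring. It had 111.2, 115.7 and 117.3 CPM in MCKO, against 172.0, 164.7 and 165.5 CPM in control. Every MCKO value was far below every control value, and the level fell by 31.5% (log2 fold change -0.55, SE 0.042, edgeR adjusted p = 5.03e-06). Psma5 changed least in the ring. It had 136.2, 134.8 and 142.1 CPM in MCKO, against 159.6, 160.1 and 160.6 CPM in control, and the groups did not overlap either (-0.22, SE 0.039, edgeR adjusted p = 0.00113). The other 5 alpha genes lay between these, with Psma3 at -0.53, Psma1 at -0.43, Psma7 at -0.33, Psma2 at -0.27 and Psma6 at -0.24.

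In the beta ring all 7 constitutive genes were lower, with a median of -0.28. Psmb3 (ENSMUSG00000069744, chromosome 11, 97703399 to 97713500, plus strand), a subunit without a catalytic site, had the lowest ratio. It had 86.45, 86.02 and 96.58 CPM in MCKO, against 130.6, 141.9 and 124.6 CPM in control (log2 fold change -0.56, SE 0.064, edgeR adjusted p = 6.07e-05). The groups were well apart, by more than the range within either. Psmb4, also without a catalytic site, changed least, with 117.8, 125.2 and 130.5 CPM in MCKO, against 136.3, 139.2 and 135.6 CPM in control. The highest MCKO library came close to the lowest control library (-0.14, SE 0.047, edgeR adjusted p = 0.0295). This call was lost without MCKO replicate 1 (adjusted p = 0.136), without MCKO replicate 2 (0.0839) and without control replicate 1 (0.0733).

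All 3 catalytic subunits were lower, and differences between them were not tested. Psmb6, which cuts after acidic residues, had 137.6, 133.9 and 144.4 CPM in MCKO, against 187.2, 198.4 and 177.5 CPM in control (log2 fold change -0.44, SE 0.052, edgeR adjusted p = 8.12e-05). Psmb7, which cuts after basic residues, had 155.5, 146.5 and 160.9 CPM in MCKO, against 188.3, 192.7 and 193.4 CPM in control (-0.31, SE 0.045, edgeR adjusted p = 0.000274). In both genes the MCKO libraries were all below the control libraries. Psmb5, which cuts after hydrophobic residues and is the main target of the drug bortezomib, had 101.9, 106.0 and 109.7 CPM in MCKO, against 123.7, 128.0 and 108.6 CPM in control. Here control replicate 3 lay among the MCKO values, so the groups overlapped (-0.18, SE 0.064, edgeR adjusted p = 0.0344). Among the fits that leave out 1 library, the Psmb5 call held only without control replicate 3. The adjusted p was 0.0523 without MCKO replicate 3, 0.0782 without control replicate 2, 0.096 without MCKO replicate 2, 0.112 without control replicate 1 and 0.125 without MCKO replicate 1. The other 2 beta genes, Psmb2 and Psmb1, were lower by 0.28 and 0.22 on the log2 scale.

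**Figure D2:**
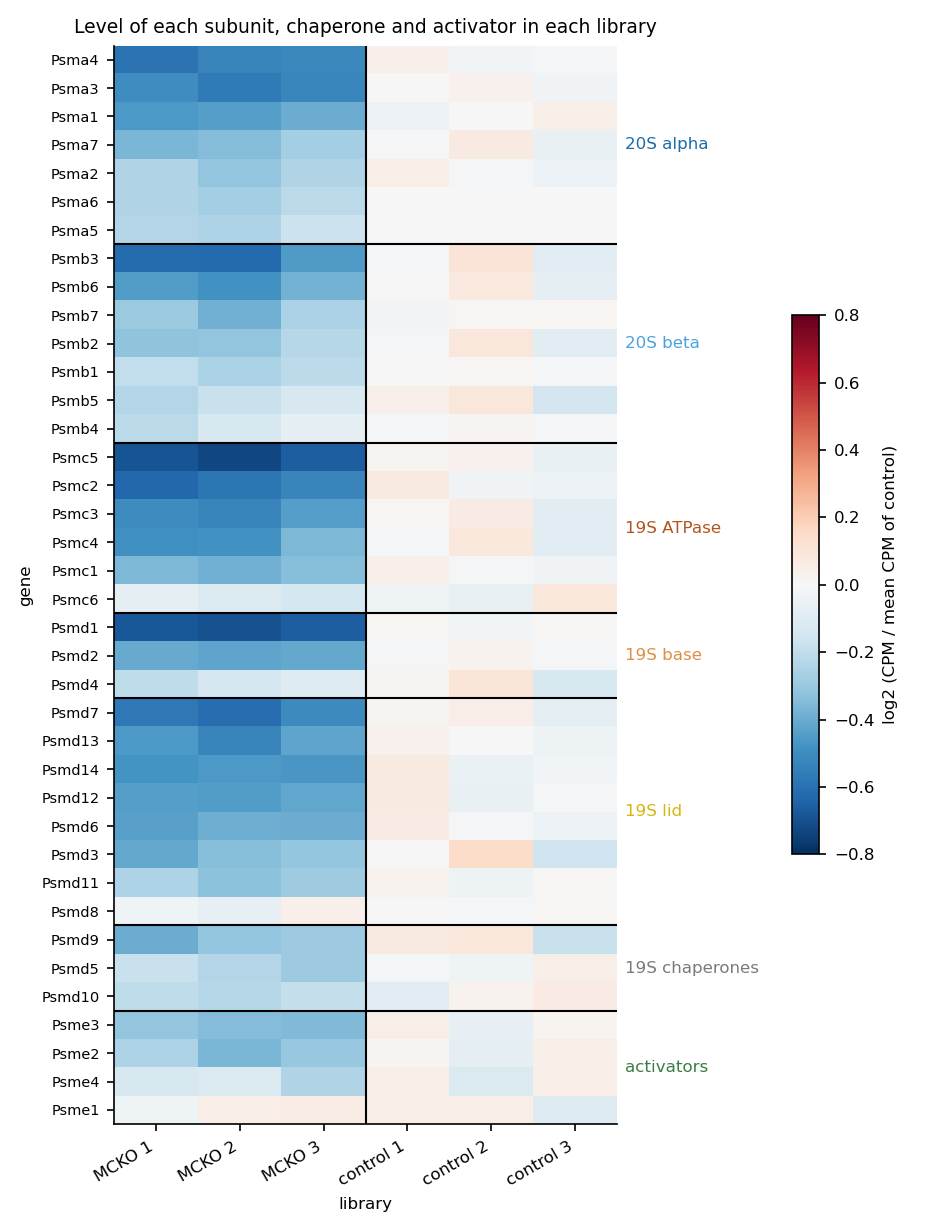
Level of each 20S, 19S, chaperone and activator gene in each library (columns, MCKO left of the line and control right of it), as log2 of its CPM over the mean CPM of the control libraries. Most rows are blue in all 3 MCKO libraries and near white in control; Psmd8 and Psme1 show no such step, and control replicate 3 is pale blue in Psmb5, Psmd3, Psmd4 and Psmd9.

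Each 20S core holds the same number of copies of each subunit, so the levels of the 14 genes can be set beside each other per length. Per kilobase of coding sequence, the subunits of MCKO hearts ran between 108.1 CPM (Psma2) and 197.9 CPM (Psmb1), a ratio of 1.83. In control hearts they ran between 129.9 CPM (Psma2) and 262.8 CPM (Psmb6), a ratio of 2.02. The coefficient of variation over the 14 genes was 17.8% in MCKO and 17.7% in control. Divided by the length of the longest protein-coding transcript it was 37.3% in MCKO and 39.5% in control. Some annotated transcripts are far longer than their coding part, such as that of Psma2 with 2911 bases, of which 702 are coding. The transcripts in use in these hearts were not resolved, so the order of levels depends on the length chosen. Psma2 was the lowest on both lengths and in both groups. By coding length, Psmb6 with 194.2 ± 7.4 CPM and Psmb1 with 197.9 ± 4.1 CPM per kilobase in MCKO did not differ beyond their spread (SD, n = 3).

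**Figure D3:**
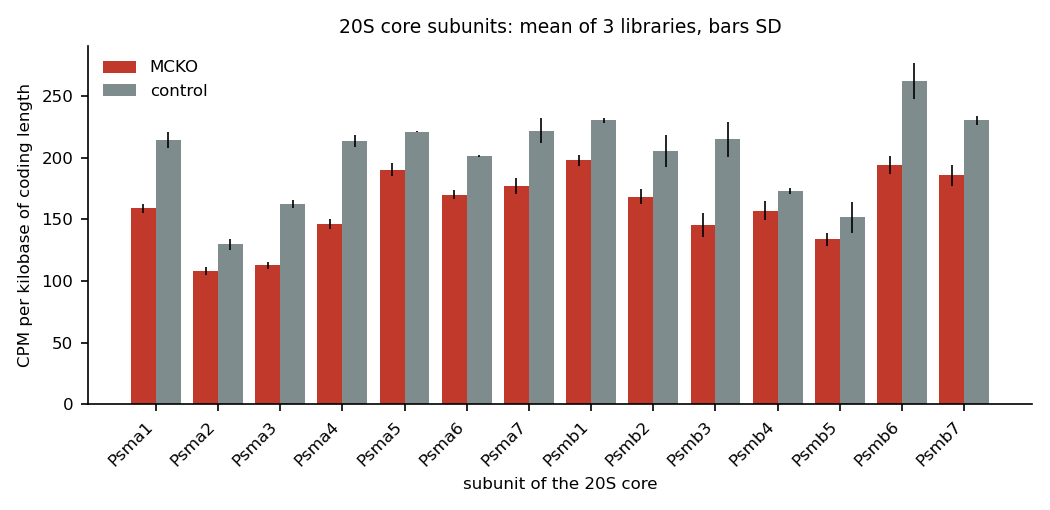
CPM per kilobase of coding length of the 14 constitutive 20S genes, as the mean of 3 libraries with bars of 1 SD, MCKO left of control in each pair. Every MCKO bar is lower than its control bar, and Psma2 has the lowest bar in both groups.

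The 19S regulatory particle had 17 subunit genes, of which 14 were lower in MCKO, 0 were higher and 3 were not called. The median log2 fold change was -0.44. Their summed level was 2348.7 ± 39.0 CPM in MCKO and 3136.4 ± 72.9 CPM in control (SD, n = 3 each), a ratio of 0.749. The difference between the 19S and 20S ratios was not tested.

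Of the 6 ATPases that form the unfolding ring, 5 were lower, with a median of -0.47 over the 6. Psmc5 (ENSMUSG00000020708, chromosome 11, 106256154 to 106263120, plus strand) had 123.1, 119.7 and 125.7 CPM in MCKO, against 201.7, 203.2 and 191.1 CPM in control. It had the lowest ratio of all 31 constitutive 20S and 19S subunits, and its level fell by 38.2% (log2 fold change -0.69, SE 0.043, edgeR adjusted p = 1.23e-06), with both groups tight and far apart. Psmc2, Psmc3, Psmc4 and Psmc1 followed at -0.58, -0.49, -0.44 and -0.36. Psmc6 changed least in the ring, and differences between the ATPases were not tested. Psmc6 had 160.3, 155.5 and 152.5 CPM in MCKO, against 164.7, 161.6 and 179.0 CPM in control (-0.11, SE 0.049, edgeR adjusted p = 0.0789). Its groups were close but did not overlap, and without control replicate 2 it passed the test (adjusted p = 0.03). The ATPases sit in the ring in equal numbers. Per kilobase of coding sequence Psmc6 was the highest of the 6 in MCKO and the third in control. Per kilobase of the longest transcript it was next to lowest in MCKO (69.87 CPM) and the lowest in control (75.4 CPM). Its place in the ring thus depends on the length chosen.

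The non-ATPase genes of the base are the scaffolds Psmd1 and Psmd2 and the ubiquitin receptor Psmd4. Psmd1 (ENSMUSG00000026229, chromosome 1, 86064387 to 86139151, plus strand) had 181.2, 178.4 and 183.4 CPM in MCKO, against 292.1, 285.1 and 291.1 CPM in control. The 3 values of each group lay within a few percent of each other, and the level fell by 37.5% (log2 fold change -0.68, SE 0.036, edgeR adjusted p = 5.22e-07). Psmd2, which also docks shuttle proteins, was lower at -0.41 (SE 0.036, edgeR adjusted p = 1.18e-05). Psmd4 had 126.8, 132.7 and 135.9 CPM in MCKO, against 148.3, 155.7 and 133.6 CPM in control. Control replicate 3 fell within the MCKO range (-0.15, SE 0.06, edgeR adjusted p = 0.0611), and without it Psmd4 passed the test as lower (adjusted p = 0.00223).

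The lid had 8 genes, of which 7 were lower, with a median of -0.42. Psmd7 (ENSMUSG00000039067, chromosome 8, 107580381 to 107588464, minus strand), the partner of the deubiquitinase Psmd14, had 109.1, 106.5 and 113.9 CPM in MCKO, against 165.1, 168.3 and 153.9 CPM in control (log2 fold change -0.56, SE 0.049, edgeR adjusted p = 1.06e-05). Psmd14 itself, which cuts the ubiquitin chain off the substrate, was lower at -0.47 (SE 0.046, edgeR adjusted p = 2.39e-05). The scaffold subunits Psmd13, Psmd12, Psmd6, Psmd3 and Psmd11 lay between -0.47 and -0.29. Psmd8, the lid subunit that joins last in yeast, was the exception. It had 121.0, 118.7 and 127.3 CPM in MCKO, against 124.4, 123.1 and 124.6 CPM in control. The MCKO values fell on both sides of the control values, and the difference did not pass the test (-0.02, SE 0.042, edgeR adjusted p = 0.702).

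The symbols Psmd5, Psmd9 and Psmd10 belong to chaperones that hold the ATPases while the 19S base is put together, and all 3 were lower in MCKO. Psmd9 had 20.28, 21.44 and 21.78 CPM in MCKO, against 28.03, 28.4 and 23.6 CPM in control (log2 fold change -0.33, SE 0.08, edgeR adjusted p = 0.00602). Psmd10, also known as gankyrin, had 16.8, 16.52 and 16.97 CPM in MCKO, against 18.13, 19.67 and 20.21 CPM in control (-0.21, SE 0.066, edgeR adjusted p = 0.023). In both genes the groups did not overlap, and control replicate 3 came nearest to the MCKO values of Psmd9 and control replicate 1 to those of Psmd10. The Psmd10 call was lost without MCKO replicate 1 (adjusted p = 0.0656), MCKO replicate 2 (0.0789), MCKO replicate 3 (0.0553) or control replicate 3 (0.0712). Psmd5 was lower at -0.23 (SE 0.05, edgeR adjusted p = 0.00302).

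Of 13 measured proteasome components and assembly factors with other symbols, 7 were lower, 1 was higher and 5 were not called, with a median of -0.16. The share called was 61.5%, near the 58.4% of all tested genes, and 53.8% were lower, against 29.1% of all. The genes named are the 4 called with the smallest p. Adrm1, a ubiquitin receptor of the 19S particle, had 62.99, 70.53 and 71.75 CPM in MCKO, against 104.9, 115.8 and 89.73 CPM in control (log2 fold change -0.59, SE 0.095, edgeR adjusted p = 0.000909). Ublcp1, a phosphatase that acts on the proteasome, was lower at -0.64 (SE 0.058, edgeR adjusted p = 1.46e-05). Psmg3, a chaperone of the alpha ring, was lower at -0.50 (SE 0.075, edgeR adjusted p = 0.000356). Usp14, a deubiquitinase bound to the 19S particle, was lower at -0.26 (SE 0.046, edgeR adjusted p = 0.00106). The 1 gene higher was Ecpas, a proteasome adaptor named after its values were seen, at 0.16 (SE 0.053, edgeR adjusted p = 0.0269). That call was lost with library totals (adjusted p = 0.158), with the replicate number as a block (0.0633) and without MCKO replicate 1 (0.0845), MCKO replicate 2 (0.0873), control replicate 1 (0.0842) or control replicate 2 (0.0605).

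The activators are caps that open the core without unfolding proteins tagged with ubiquitin. Of 5 members 4 were tested, 3 were lower and 1 was not called, and their sums were 426.07, 425.85 and 411.67 CPM in MCKO, against 500.15, 461.76 and 490.39 CPM in control. Psme1 and Psme2 encode the partners of the same ring, the interferon-inducible activator PA28. Psme1 had 72.49, 76.99 and 77.16 CPM in MCKO, against 76.61, 76.63 and 69.01 CPM in control. The groups overlapped throughout, and the difference did not pass the test (log2 fold change 0.03, SE 0.055, edgeR adjusted p = 0.678). Psme2 had 34.46, 31.66 and 33.04 CPM in MCKO, against 41.4, 38.88 and 42.2 CPM in control, without overlap (-0.31, SE 0.057, edgeR adjusted p = 0.00134). The difference between these partners was not tested. Psme2b, a copy of Psme2 at 99.37% identity, had 0 counts in the MCKO libraries and 3 counts in control replicate 1 alone.

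The nuclear activators were both lower. Psme3, which forms a ring of its own, had 135.0, 132.2 and 131.9 CPM in MCKO, against 173.5, 160.6 and 170.9 CPM in control (log2 fold change -0.34, SE 0.043, edgeR adjusted p = 0.000125). Psme4, the large activator PA200 linked to the breakdown of histones, had 184.1, 185.0 and 169.6 CPM in MCKO, against 208.5, 185.6 and 208.3 CPM in control. Control replicate 2 was barely above the highest MCKO library (-0.16, SE 0.057, edgeR adjusted p = 0.035). The Psme4 call was lost without MCKO replicate 1 (adjusted p = 0.0602), MCKO replicate 2 (0.0626), MCKO replicate 3 (0.142), control replicate 1 (0.133) or control replicate 3 (0.0661).

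The 3 inducible subunits of the immunoproteasome were scarce in these hearts. Psmb8, the counterpart of Psmb5, had 5 counts over the 3 MCKO libraries and 5 over the 3 control libraries. By library this was 0.0893, 0 and 0.0859 CPM in MCKO, against 0.0363, 0.102 and 0.0606 CPM in control. Psmb9, the counterpart of Psmb6, had 3 counts in all over the MCKO libraries and 0 over the controls. By library this was 0.0298, 0 and 0.0859 CPM in MCKO, against 0 CPM in each control. A count of 0 in a library allows up to 3 counts, or 0.0893 to 0.153 CPM, which covers counting error only. Neither gene had more than 3 counts in any library, so a difference between groups was not detectable at this depth.

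Psmb10 (ENSMUSG00000031897, chromosome 8, 105935735 to 105938444, minus strand), the counterpart of Psmb7, was detected in every library and was lower in MCKO. It had 2.86, 2.62 and 3.35 CPM in MCKO, against 5.8, 6.34 and 4.58 CPM in control, and the groups did not overlap. The level fell by 47.0% (log2 fold change -0.91, SE 0.161, edgeR adjusted p = 0.000954), based on 240 counts over the MCKO libraries and 435 over the controls. Per kilobase of transcript, Psmb10 stood at 1.63, 1.58 and 1.84% of Psmb7 in MCKO, against 2.73, 2.91 and 2.09% in control. Its share relative to the constitutive partner was thus lower in every MCKO library, with means of 1.68 ± 0.138% in MCKO and 2.58 ± 0.431% in control (SD, n = 3 each).

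**Figure D4:**
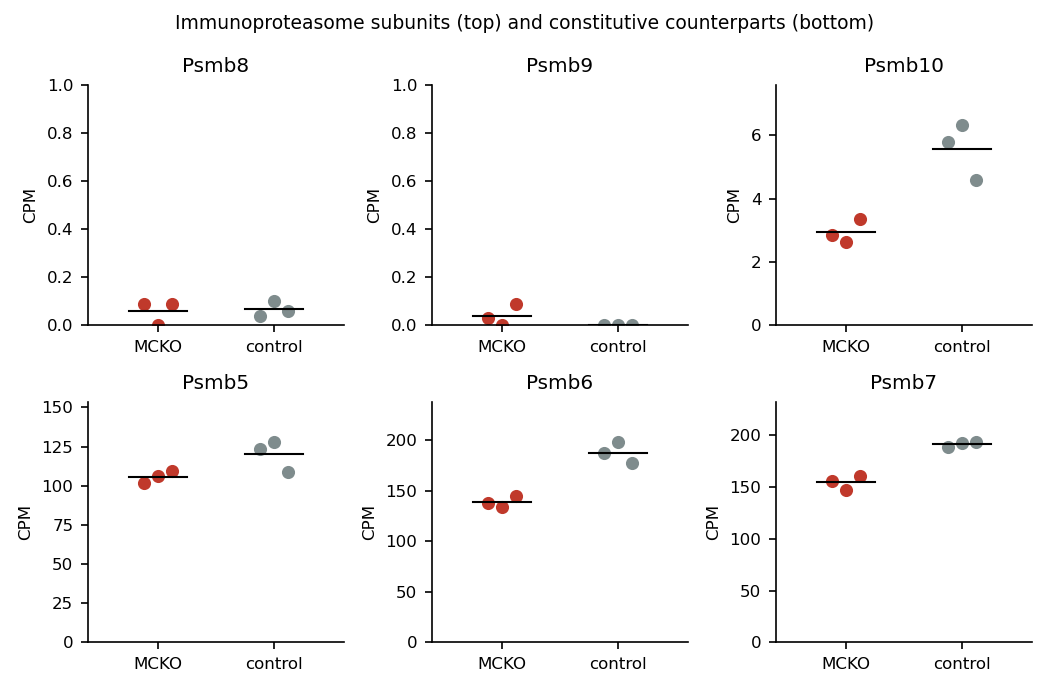
CPM of the immunoproteasome subunits (upper row) and of the constitutive counterpart of each (lower row), 1 point per library with the group mean as a line, MCKO left of control and each vertical axis starting at 0. Psmb8 and Psmb9 lie near 0 in both groups, and Psmb10, Psmb6 and Psmb7 are lower in all MCKO libraries while the Psmb5 groups overlap.

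Immunoproteasome subunits are abundant in leukocytes, so leukocyte markers were read beside them. The 10 markers summed to 36.18 to 40.89 CPM in MCKO and 46.28 to 48.04 CPM in control. Most of this sum was 1 gene, Lcp1, which averaged 27.6 CPM in MCKO and 35.3 CPM in control. Of the 6 tested, 3 (Lcp1, Cd53 and Csf1r) were lower in MCKO and 0 were higher. The share called in this list was below the 58.4% of all tested genes. By direction, the share lower was above the 29.1% of all tested genes. Laptm5, Coro1a and Fcer1g were not called, and the last 2 averaged 2.46 and 0.476 CPM in MCKO, against 1.66 and 0.422 CPM in control. The pan-leukocyte gene Ptprc averaged 0.228 CPM in MCKO and 0.367 CPM in control and was too low to test, as were Tyrobp, Cd52 and Aif1. The sum was lower in MCKO mostly through Lcp1. Coro1a went the other way, with 2.055, 3.09 and 2.234 CPM in MCKO, against 1.885, 2.043 and 1.06 CPM in control. The part of leukocytes in the Psmb10 value was not tested. Of 17 genes of interferon signalling and antigen presentation, 11 were tested, with 3 higher, 2 lower and 6 not called and a median of 0.07. The share called was 45.5%, against 58.4% of all tested genes. Tap1 and Tap2, which carry peptides made by the proteasome to the class I molecules, were too low to test, as were Irf7, Nlrc5, Ifit1 and Ifit3. The transcription factor gene Irf9 was lower at -0.56 (SE 0.076, edgeR adjusted p = 0.000195), and Bst2, an interferon-induced gene, was higher at 0.93 (SE 0.145, edgeR adjusted p = 0.000478). The peptide-trimming enzyme gene Erap1 was lower at -0.96 (SE 0.107, edgeR adjusted p = 5.54e-05). The class I gene H2-K1 had 42.5, 40.06 and 43.18 CPM in MCKO, against 3.52, 3.53 and 2.82 CPM in control, a log2 fold change of 3.69 (SE 0.09, edgeR adjusted p = 4.44e-09). The other class I gene of the list, H2-D1, was not called (0.17, SE 0.133, edgeR adjusted p = 0.287). B2m was higher at 0.19 (SE 0.054, edgeR adjusted p = 0.0127). H2-K1 differs in sequence between mouse strains. The controls are labelled C57BL/6, and the strain of the MCKO embryos is not named in the labels. A part of strain in the H2-K1 value was not tested.

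The remaining members are known from other tissues. Psma8, the alpha subunit of the testis, had 0.983, 1.149 and 0.559 CPM in MCKO, against 2.28, 1.84 and 2.3 CPM in control (log2 fold change -1.25, SE 0.25, edgeR adjusted p = 0.00209). Psmb11, the beta subunit of the thymus cortex, had 0.953, 0.951 and 1.07 CPM in MCKO, against 0.326, 0.971 and 0.606 CPM in control. Its groups overlapped (0.69, SE 0.342, edgeR adjusted p = 0.11), and without control replicate 2 it was called higher at 1.05 (adjusted p = 0.0233). Both genes were near the low end of what could be tested. Psmc3ip shares the symbol but is a meiotic recombination factor and no proteasome subunit. It had 8.52, 8.88 and 8.03 CPM in MCKO, against 12.29, 11.75 and 12.33 CPM in control (-0.52, SE 0.082, edgeR adjusted p = 0.000496).

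The route through which proteasome genes are raised was read from 14 genes of NRF1 and NRF2 and their targets. Of these 5 were higher, 4 were lower and 5 were not called, with a median of 0.07. The share called, 64.3%, was near the 58.4% of all tested genes. By direction 35.7% were higher, against 29.3% of all, and 28.6% were lower, against 29.1% of all. Nfe2l1, which encodes NRF1 and is named here after its values were seen, had 238.7, 240.7 and 243.8 CPM in MCKO, against 203.6, 208.2 and 198.3 CPM in control. All MCKO libraries were above all controls (log2 fold change 0.25, SE 0.038, edgeR adjusted p = 0.000423). Ddi2 and Ngly1, which process NRF1, and Nfe2l2, which encodes NRF2, were not called. The small Maf genes encode the partners of both factors on DNA. Maff had 33.47, 34.55 and 34.89 CPM in MCKO, against 6.16, 6.74 and 6.57 CPM in control (2.40, SE 0.065, edgeR adjusted p = 7.53e-09), and Mafg was higher at 0.56 (SE 0.048, edgeR adjusted p = 1.01e-05). The haem oxygenase gene Hmox1 was higher at 1.58 (SE 0.057, edgeR adjusted p = 4.41e-08). The thioredoxin reductase gene Txnrd1 was lower at -0.97 (SE 0.04, edgeR adjusted p = 1.04e-07). Named after their values were seen, Mafk was higher at 0.69, and Srxn1, Gclc and Gclm were lower at -0.61, -0.59 and -0.22. Nqo1 was not called (-0.39), at 0.89 CPM in MCKO and 1.155 CPM in control. All 4 genes called lower were thus targets, and of the enzyme genes among the targets only Hmox1 was called higher.

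Of 17 genes for ubiquitin, its activating enzymes and the shuttles that bring substrates to the proteasome, 8 were lower, 2 were higher and 7 were not called, with a median of -0.11. The share called was 58.8%, near the 58.4% of all tested genes. By direction 47.1% were lower, against 29.1% of all, and 11.8% were higher, against 29.3% of all. Vcp, the ATPase that extracts substrates upstream of the proteasome, had 584.6, 589.9 and 599.5 CPM in MCKO, against 921.2, 906.0 and 892.0 CPM in control (log2 fold change -0.62, SE 0.036, edgeR adjusted p = 8.64e-07). Its cofactor Nploc4 was lower at -0.50 (SE 0.044, edgeR adjusted p = 1.22e-05), and Zfand2a, a stress-induced partner of the proteasome, was lower at -0.75 (SE 0.074, edgeR adjusted p = 2.6e-05). The autophagy receptor gene Sqstm1 was higher, with 153.1, 147.6 and 153.4 CPM in MCKO, against 92.53, 100.3 and 94.34 CPM in control (0.66, SE 0.045, edgeR adjusted p = 2.41e-06).

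**Figure D5:**
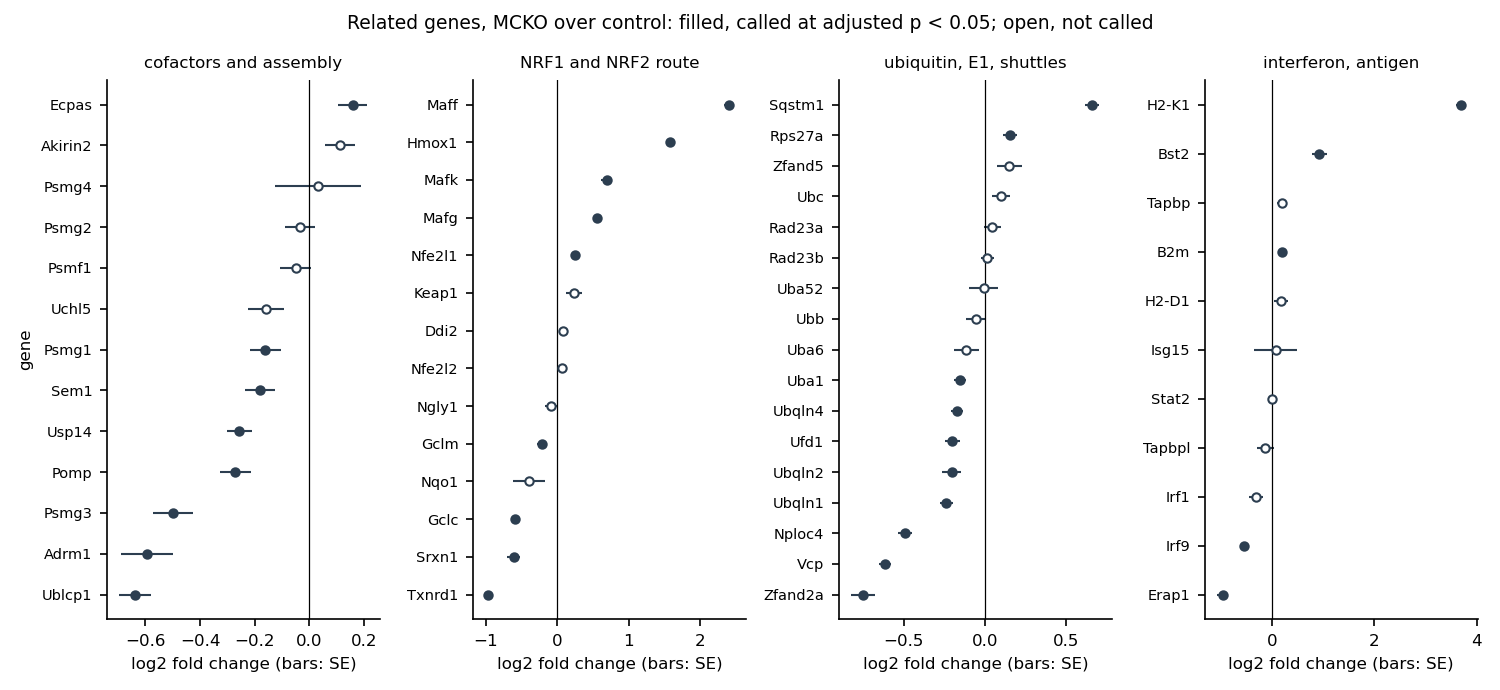
Log2 fold change with bars of 1 SE, MCKO over control, for the tested genes of 4 related lists, each panel with its own horizontal scale; filled points passed the test and open points did not. Cofactors and the ubiquitin list lie mostly left of 0, while the NRF1 and NRF2 route spreads between Txnrd1 at -0.97 and Maff at 2.40.

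Among the 42 tested members the log2 fold change, with its sign, had little relation to other features of the gene. This is a description across genes that share the same libraries. Pearson's r was 0.23 with log2 transcript length, 0.06 with GC percent and -0.07 with log2 mean CPM. The mean CPM is that of the control libraries, which also enters the fold change. Over the 31 constitutive subunits r was -0.04 with length, 0.02 with GC percent and -0.33, a weak negative relation, with level. Members of the same class differed as well, and each of the ATPase, base and lid groups held a member at or below -0.56 and a member that was not called.

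Some counts could be shared with other genes. A near-identical transcript elsewhere in the annotation was found for 9 members: Psma3, Psma4, Psma5, Psmb3, Psmb5, Psmc1, Psmd11, Psme2 and Psme2b. The copies are mostly processed pseudogenes with few or no counts, where they are in the table. The exception is Gm13835, identical to Psma3 over 97.08% of the shorter transcript, which had 30.73, 34.04 and 34.93 CPM in MCKO, against 43.69, 44.04 and 48.11 CPM in control. Summed with this copy, an alternative chosen after seeing the data, Psma3 gave a log2 fold change of -0.51 (SE 0.038, edgeR adjusted p = 4.4e-06), against -0.53 alone. Of the 34 tested members without a copy, 29 were lower and 0 higher. Exons of 14 members overlap another gene, such as Psmc3ip with Mlx over 21.18% of its exonic bases and Psmd9 with the noncoding Gm26745 over 25.51%. In 3 members, Psmb5, Psmd1 and Psme2b, an overlap is on the same strand, which the strand of a read cannot separate. For Psmd1 it is with Gm21972 over 4.14% of its exonic bases. Libraries came from a stranded kit, but whether strand was used in counting is not stated. All 14 values are therefore less certain.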

How the data were processed

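RNA of whole hearts was sequenced from stranded mRNA libraries, per the labels' protocols. The authors deposited 1 table of estimated counts per Ensembl gene, given as whole numbers and not normalized. Kallisto and the build mm10 come from the submitters' processing notes, with no version; the transcript set and strand setting are not stated. Columns were matched to samples by their titles, with CKO read as MCKO.

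Symbols, coordinates and lengths came from GENCODE on GRCm38. MCKO was set against control in R 4.3.3 with edgeR 4.0.16 (filterByExpr, TMM, robust quasi-likelihood fit, group only, 2-sided, Benjamini-Hochberg over 14697 genes). DESeq2 1.42.0 was an alternative, with other size factors, filters, thresholds and each library left out. CPM are counts over TMM-scaled library sizes; library totals, planned as the first scale for levels, served as the alternative and leave ratios within a library as they are. Near-identical copies were found with minimap2 2.31 at 95% identity over 80% of the shorter length and at least 200 bases. The script was tested on simulated data.

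The members and lists were chosen with earlier results of these data known. Values per library are given for immunoproteasome subunits with their counterparts, the highest and lowest fold change of each class, and activators. Of each related list, up to 4 called genes were named by smallest p, and some others after their values were seen. A result of 1 listed gene is not reported here. No library was a copy of another. Labels do not say that libraries came from separate animals, so p-values reflect only how these samples vary, and that variation may be technical. Limits for a count of 0 cover counting error only.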

Additional observations from a re-analysis of the deposited data

How the results depend on the processing

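Of the 42 tested members, 35 kept their side of the threshold in all 15 settings in which they could be fitted, 33 of them called lower. Over those settings the fit called 33 to 39 members lower; leaving out 1 library gave 33 to 37 lower and 0 to 1 higher, the 1 being Psmb11 without control replicate 2. No called member changed sign. Of those not called, Psme1 did so with library totals (-0.03) and without control replicate 3 (-0.02), and Psmd8 without MCKO replicate 2 (0.0033). With the replicate number as a block, 7765 genes were called and 33 members were lower; Psmb4, Psmb5, Psmd10 and Psme4 were lost (adjusted p = 0.0677, 0.0732, 0.0576 and 0.0775), while same-numbered libraries did not deviate together (correlations -0.005, 0.022 and -0.13; 1 of 6 libraries correlated best with its own number), so they share only a number. The same 4 genes were lost at a threshold of 0.01, and Psmd10 with DESeq2 (adjusted p = 0.0816). Psmc6 and Psmd4 were called lower with library totals (adjusted p = 0.0159 and 0.0117) and with upper-quartile factors (0.0468 and 0.0417).

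Library totals in place of TMM factors moved the median of all tested genes by -0.06 and that of the members to -0.41; leaving out 1 library gave member medians of -0.39 to -0.34. Of all calls, 42.6% were higher in MCKO with library totals, against 50.2% with TMM. By coding length, Psmb10 stood at 1.93% of Psmb7 in MCKO and 2.95% in control, and the coefficient of variation of the 14 core genes was 17.8% in MCKO and 17.7% in control, set beside the transcript-length values in the report. The cause of these shifts was not tested. The filter of at least 50 counts in 3 libraries left 40 members, 36 of them lower. Depth limits Psmb8, Psmb9 and Psme2b, which could not be tested, and leaves wide errors on Psma8, Psmb11 and Psmb10.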
